A study of Mus musculus with 15 samples.

Results

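The genes described here are 10 genes of glucose uptake and glycolysis: *Slc2a1*, *Hk1*, *Hk2*, *Pfkl*, *Pfkp*, *Aldoa*, *Pgk1*, *Eno1*, *Pkm* and *Ldha*. They were chosen by symbol, and each had 1 row among the 20910 genes of the raw count table of cultured mouse retinal pigment epithelium (mRPE) cells and 1 row among the 25038 genes of the raw count table of RPE/choroid tissue. All 10 passed the filter of at least 5 counts in at least 3 libraries in both tables.

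Bulk RNA-seq was used to ask how loss of *Prom1*, which encodes the membrane glycoprotein prominin-1, changes the RPE transcriptome. The mRPE line came from pooled C57/BL6J mice and was immortalized with lentiviral oncogenes, so these are dividing cells in culture and not the tissue. By the study's methods, mRPE cells went through lentiviral Cas9 and puromycin selection and then received either a scrambled or a *Prom1* guide RNA. Those methods do not state that the sequenced WT cells were those given the scrambled guide RNA. There were 4 WT libraries, 3 of the Prom1-KO line 22 (KO22) and 2 of the Prom1-KO line 26 (KO26), and each KO line is a single edited line, so its other differences from WT cannot be told apart from the loss of *Prom1*. By the prefix of the library names, batch 1 held 1 library of each group, numbered replicate 1, and batch 2 held the others. The study set both KO26 libraries aside as outliers, and they are kept here as a group of their own. For RPE/choroid, 3 libraries labelled WT and 3 labelled Prom1_KO were made after Cre-loxP deletion of *Prom1* in the RPE in situ, where *Rpe65*-driven Cre acts in RPE cells only and leaves the other cells of the tissue with the gene. The labels give neither the age of these mice nor whether the WT mice carried Cre. Nothing in the labels ties a library to a separate culture, so p-values measure the spread between these libraries, which may be technical.

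Total counts per library ran from 8076188 to 27537863 in mRPE and from 48154444 to 61766179 in RPE/choroid. *Prom1* was not analysed here in mRPE, so the loss of the edited gene was not checked in these libraries. In RPE/choroid, *Prom1* was at 48.7, 49.6 and 53.3 CPM (counts scaled to a common library total, adjusted by the trimmed mean of M values) in the WT libraries and at 49.9, 48.1 and 35.5 CPM in the libraries labelled Prom1_KO (log2 fold change -0.18, adjusted p = 0.824, edgeR). *Prom1* RNA thus did not separate the tissue labels. Of 12 RPE markers, 4 were listed in the mRPE table (*Best1*, *Rdh5*, *Mitf*, *Pmel*), with summed levels of 8.17 to 40.0 CPM, so the mRPE libraries were low in the markers that define differentiated RPE.

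Glycolysis splits glucose into pyruvate in the cytosol, and fermentation to lactate restores the NAD+ it consumes. Hexokinase and phosphofructokinase catalyse committed, regulated steps, and many genes of the pathway are induced together by the transcription factors HIF-1 and MYC. In the eye the RPE carries glucose from the choroid to photoreceptors, which ferment most of it, and is thought to spare glucose by oxidizing other fuels, including the lactate that photoreceptors return.

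The HIF-1 heterodimer binds DNA around the core ACGTG or GCGTG, so the windows of 250 bases before the RefSeq start of each gene were searched for both on either strand. Windows were taken from RefSeq (GRCm38.p6) and placed on GRCm39 by exact match, and the RefSeq starts of *Ldha* and *Hk2* lie inside the span that the gene annotation gives for them. All 10 genes had a window, and those of *Ldha*, *Pgk1* and *Hk2* are shown because they held ACGTG more than once. Of all windows in the RefSeq table, 6.81% held 2 or more matches. In that share a single CACGTG, which was in 6.02% of all windows, counts as 2 matches because it reads as ACGTG on both strands. The *Pgk1* and *Hk2* windows held no CACGTG, so that share is not a like measure for them. Capitals mark ACGTG, or CACGT where it lies on the other strand, and each line reads 5′ to 3′ on the strand of the gene.
Ldha, chr7:46494978-46495227, plus strand: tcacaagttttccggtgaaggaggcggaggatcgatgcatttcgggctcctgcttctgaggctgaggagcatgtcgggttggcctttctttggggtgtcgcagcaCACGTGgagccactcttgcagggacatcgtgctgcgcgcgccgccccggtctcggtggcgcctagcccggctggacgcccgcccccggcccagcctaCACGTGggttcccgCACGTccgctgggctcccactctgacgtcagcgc
Pgk1, chrX:105230456-105230705, plus strand: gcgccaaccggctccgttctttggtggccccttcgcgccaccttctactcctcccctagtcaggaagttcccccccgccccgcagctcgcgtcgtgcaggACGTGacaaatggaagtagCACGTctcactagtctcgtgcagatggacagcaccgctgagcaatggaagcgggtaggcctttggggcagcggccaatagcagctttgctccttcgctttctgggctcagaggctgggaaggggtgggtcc
Hk2, chr6:82751436-82751685, minus strand: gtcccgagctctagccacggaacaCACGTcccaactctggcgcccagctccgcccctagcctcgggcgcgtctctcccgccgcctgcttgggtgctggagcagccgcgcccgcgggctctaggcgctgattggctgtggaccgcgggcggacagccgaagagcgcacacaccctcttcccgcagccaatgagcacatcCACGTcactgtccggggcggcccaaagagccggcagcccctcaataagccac
ACGTG was present in 5 of the 10 windows (*Slc2a1*, *Hk2*, *Aldoa*, *Pgk1*, *Ldha*) and in 16.6% of the 32851 windows in that table. GCGTG was in the windows of *Slc2a1*, *Hk1*, *Pfkl*, *Pfkp* and *Eno1*, with 3 matches each in *Hk1* and *Pfkp*, and in 28.2% of all windows. The window of *Pkm* held neither ACGTG nor GCGTG. The *Ldha* window held 5 matches, 4 of which come from 2 copies of the palindrome CACGTG, which reads as ACGTG on both strands and is also the E-box bound by MYC. CACGTG was in 6.02% of all windows and in that of 1 of the 10 genes. A match is a description of the letters and not a binding site, and binding was not measured here.

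In WT mRPE cells the genes from *Aldoa* to *Ldha* were far above the carrier and the hexokinases when compared per kilobase of the canonical transcript. *Ldha* was highest at 397 ± 29.9 CPM per kilobase (SD, n = 4), and every one of its libraries lay above those of *Aldoa* at 269 ± 41.4. *Aldoa* overlapped with *Pgk1* (263 ± 42.6), which overlapped with *Eno1* (169 ± 39.8), and no library of *Eno1* fell to the range of *Pkm*. *Pkm* followed at 112 ± 12.96 CPM per kilobase. *Pfkp* (28.6 ± 4.57) overlapped with *Pfkl* (21.0 ± 2.95), and *Slc2a1* (12.001 ± 0.398) with *Hk1* (10.8 ± 1.52), while *Hk2* at 5.00 ± 0.325 CPM per kilobase lay below all others. Of the 100-base windows of the canonical transcript, 67.0% of those of *Pgk1* and 51.9% of those of *Eno1* were also found in other genes, among them *Pgk1-rs7* and *Eno1b*, so the levels of these genes depend on how shared reads were counted. The share was 8.34% for *Pkm*, 1.48% for *Ldha* and 0 for the other 6 genes. Genes that overlap the gene in question were left out of these shares. Among those left out on the same strand were *Gm57854* for *Aldoa* and *Gm49759* for *Pkm*. Sharing with such overlapping genes was not measured, so the 0 for *Aldoa* does not cover *Gm57854*.

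Most of the glycolytic genes rose in KO22 mRPE cells, and in KO26 all 10 lay above WT while 5 passed the test. In KO22, 7 of the 10 genes rose and none fell at an adjusted p under 0.05, and their median log2 fold change was 0.90 against -0.03 over all genes tested. In the same test 26.9% of the 20455 genes tested were higher and 26.1% were lower. For the same 7 genes every KO22 library was above every WT library, as it was for 24.8% of all genes. *Eno1* and *Pkm* also passed an absolute log2 fold change over 1.2, as did 11.4% of all genes in that direction. In KO26 all 10 genes had a positive log2 fold change, 0.63 to 1.16, and 5 rose while none fell, in a comparison where 2.36% of 20737 genes were higher and 1.13% were lower. For all 10 genes both KO26 libraries were above every WT library, as they were for 11.9% of all genes. The KO22 values come from a fit of WT and KO22 alone and the KO26 values from a fit of all 9 libraries. In a fit of WT and KO26 alone all 10 genes were called in KO26, and in the fit of all 9 libraries 7 were called in KO22. The KO22 and KO26 comparisons use the same 4 WT libraries, so their values are given side by side and not as independent results.

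**Figure D1:**
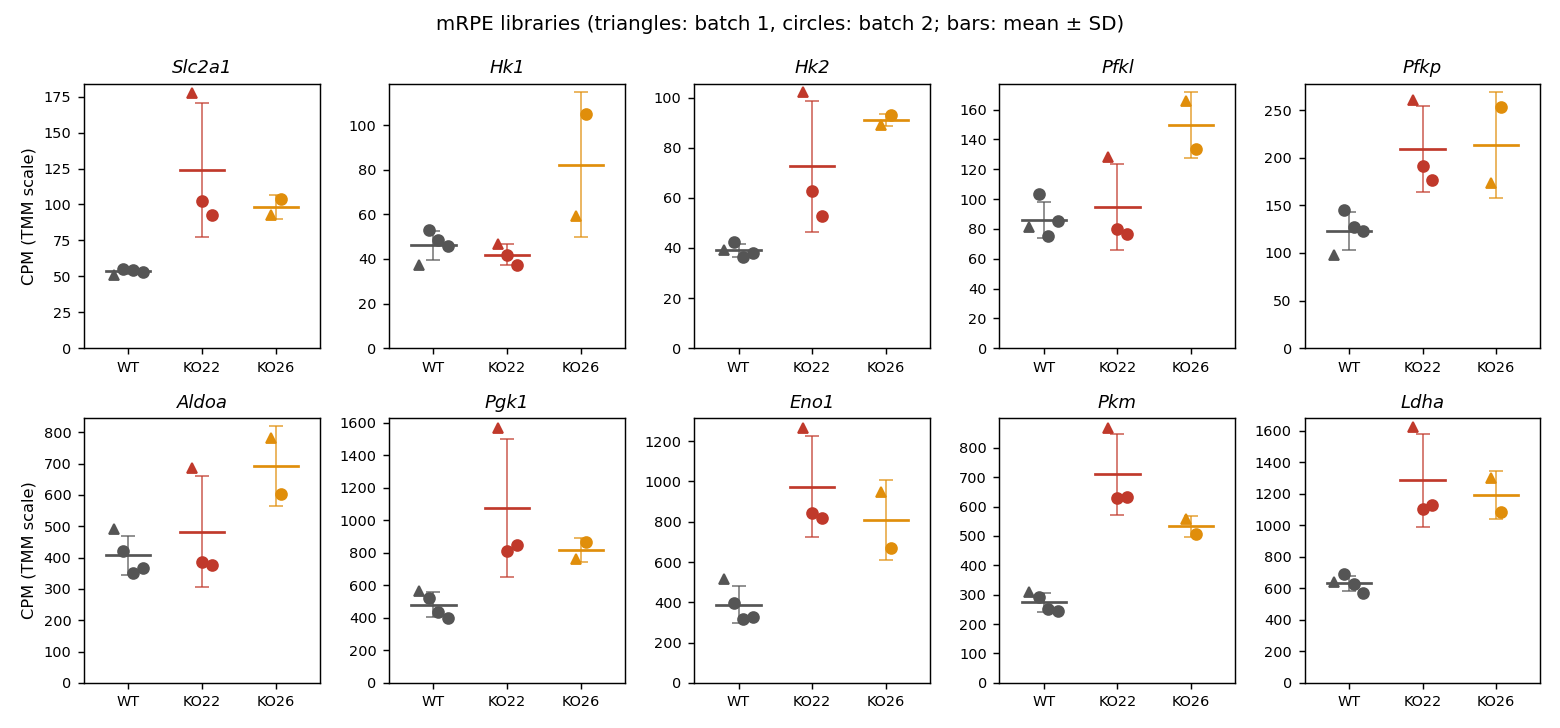
Level of each glycolytic gene in CPM (vertical axes, each from 0) in each mRPE library of WT, KO22 and KO26, with batch 1 as triangles, batch 2 as circles, and the mean ± SD as bars. Both KO26 libraries lie above all 4 WT libraries in all 10 panels, and the batch 1 library of KO22 is the highest of its group in all of them.

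*Slc2a1* (ENSMUSG00000028645, chr4:118965908-118996365, plus strand, GRCm39) encodes GLUT1, the main glucose carrier of the RPE and of the blood-retina barrier. Its level was 51.2, 55.3, 54.1 and 52.7 CPM in WT, 178, 102 and 92.7 CPM in KO22, and 92.4 and 104 CPM in KO26. The WT libraries lay close together, and all 5 KO libraries were above them. The log2 fold change was 1.13 ± 0.17 in KO22 (SE, adjusted p = 0.000498) and 0.82 ± 0.21 in KO26 (adjusted p = 0.0601).

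The hexokinases, which trap glucose in the cell as glucose phosphate, include the products of *Hk1* and *Hk2*, and both genes rose in KO26. *Hk1* (ENSMUSG00000037012, chr10:62104621-62215687, minus strand) encodes the isozyme found in most tissues. It was at 37.4, 52.9, 48.4 and 45.9 CPM in WT, at 46.6, 41.7 and 37.3 CPM in KO22, and at 59.3 and 105 CPM in KO26. The KO22 libraries lay within the WT range or at its lower edge (log2 fold change -0.13 ± 0.15, adjusted p = 0.485), whereas *Hk1* rose in KO26 (0.88 ± 0.20, adjusted p = 0.0392). *Hk2* (ENSMUSG00000000628, chr6:82699740-82751469, minus strand), the inducible isozyme typical of muscle and proliferating cells, was at 39.0, 42.4, 36.4 and 38.1 CPM in WT, at 102, 62.8 and 52.8 CPM in KO22, and at 89.3 and 92.9 CPM in KO26. It rose in both lines, with log2 fold changes of 0.81 ± 0.17 in KO22 (adjusted p = 0.00286) and 1.16 ± 0.20 in KO26 (adjusted p = 0.0151), and no KO library overlapped with WT.

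Phosphofructokinase commits the sugar to glycolysis, and *Pfkl* and *Pfkp* encode its liver-type and platelet-type subunits. *Pfkl* (ENSMUSG00000020277, chr10:77818084-77845922, minus strand) was at 81.1, 103, 75.2 and 85.1 CPM in WT, at 128, 80.1 and 76.4 CPM in KO22, and at 166 and 134 CPM in KO26. KO22 overlapped with WT, with 1 library above and 2 inside its range (log2 fold change 0.08 ± 0.18, adjusted p = 0.740), and KO26 was above it without passing the test (0.71 ± 0.20, adjusted p = 0.0791). *Pfkp* (ENSMUSG00000021196, chr13:6629798-6698970, minus strand) was at 97.8, 146, 127 and 123 CPM in WT, at 261, 192 and 176 CPM in KO22, and at 174 and 253 CPM in KO26. It rose in KO22 (0.76 ± 0.18, adjusted p = 0.00581) and was higher without passing the test in KO26 (0.81 ± 0.21, adjusted p = 0.0664).

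As with *Pfkl*, *Aldoa* had no call in either line. *Aldoa* (ENSMUSG00000030695, chr7:126393822-126399923, minus strand), the aldolase that splits fructose bisphosphate into trioses, was at 490, 420, 352 and 366 CPM in WT, at 687, 386 and 376 CPM in KO22, and at 782 and 602 CPM in KO26. Only the batch 1 library of KO22 was above WT (log2 fold change 0.15 ± 0.13, adjusted p = 0.376), while both KO26 libraries were (0.63 ± 0.15, adjusted p = 0.0543). *Aldoa* overlaps *Gm57854* on the same strand, so reads of these genes may be confused.

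*Pgk1* (ENSMUSG00000062070, chrX:105230706-105247305, plus strand) encodes phosphoglycerate kinase, which makes the first ATP that glycolysis regains. Its level was 567, 522, 434 and 398 CPM in WT, 1569, 814 and 848 CPM in KO22, and 764 and 868 CPM in KO26. All KO libraries were above WT, and the batch 1 library of KO22 stood well above the others. *Pgk1* rose in KO22 (1.05 ± 0.15, adjusted p = 0.000385) and did not pass the test in KO26 (0.70 ± 0.21, adjusted p = 0.104).

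*Eno1* (ENSMUSG00000063524, chr4:150321073-150337027, plus strand), the widely expressed enolase, was at 515, 395, 318 and 326 CPM in WT, at 1265, 843 and 817 CPM in KO22, and at 948 and 668 CPM in KO26. It rose in KO22 by a log2 fold change of 1.27 ± 0.12 (adjusted p = 2.65e-05) and in KO26 by 0.92 ± 0.14 (adjusted p = 0.0101). *Pkm* (ENSMUSG00000032294, chr9:59563364-59586663, plus strand), which encodes both splice forms of pyruvate kinase M, was at 309, 293, 252 and 244 CPM in WT, at 869, 628 and 634 CPM in KO22, and at 559 and 506 CPM in KO26. The groups were ordered without overlap, with WT lowest and KO22 highest. *Pkm* had the highest log2 fold change of the 10 genes in KO22, 1.33 ± 0.12 (adjusted p = 1.86e-05), and rose by 0.89 ± 0.14 in KO26 (adjusted p = 0.0108); gene counts do not separate its M1 and M2 forms.

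*Ldha* (ENSMUSG00000063229, chr7:46490899-46505061, plus strand), whose window with 5 ACGTG matches is shown above, encodes the lactate dehydrogenase subunit that favours the making of lactate. It was at 641, 688, 624 and 573 CPM in WT, at 1624, 1103 and 1129 CPM in KO22, and at 1298 and 1081 CPM in KO26. All 5 KO libraries were above the highest WT library. *Ldha* rose in both lines, by 0.98 ± 0.14 in KO22 (adjusted p = 0.000316) and by 0.84 ± 0.16 in KO26 (adjusted p = 0.0196).

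**Figure D2:**
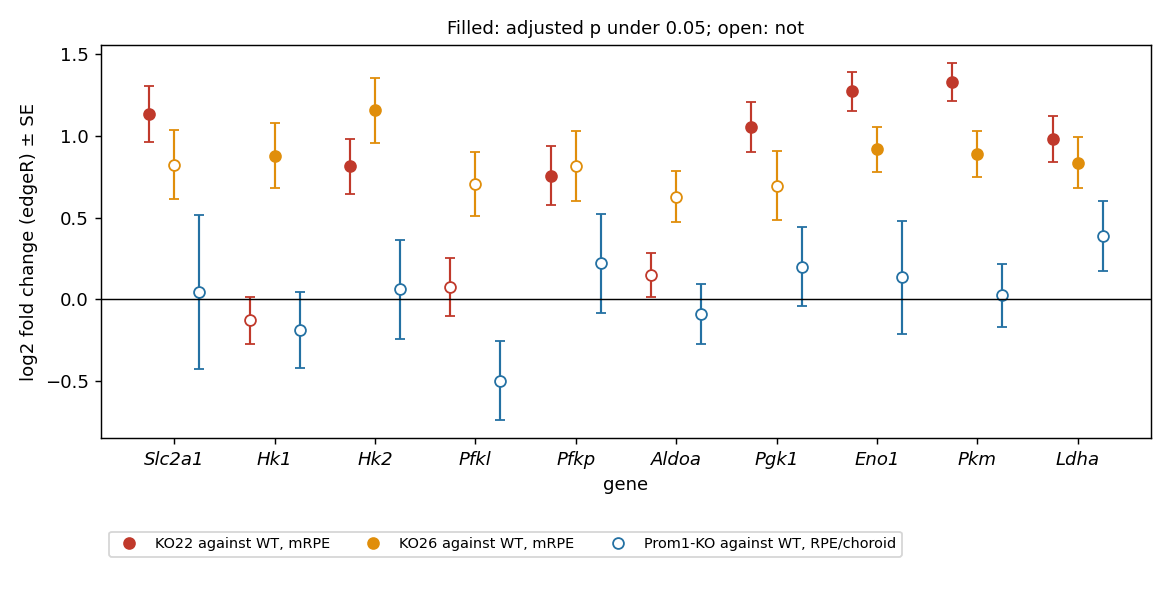
Log2 fold change (vertical axis) ± SE of each of the 10 genes for KO22 and KO26 mRPE cells and for RPE/choroid labelled Prom1_KO, each against WT. Filled points passed an adjusted p under 0.05: 7 genes in KO22, 5 in KO26 and 0 in RPE/choroid.

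The increase in KO22 was larger in batch 1 than in batch 2. On log2 CPM with a pseudocount of 0.5, the median difference between KO22 and WT over the 10 genes was 1.36 in batch 1 (1 library against 1) and 0.70 in batch 2 (2 against 3). *Slc2a1* differed by 1.79 in batch 1 and 0.84 in batch 2, *Pgk1* by 1.47 and 0.89, and *Hk2* by 1.38 and 0.56. *Eno1*, at 1.29 and 1.27, was nearly the same in both batches. *Hk1* turned from 0.31 in batch 1 to -0.31 in batch 2 and *Pfkl* from 0.66 to -0.15, while the other 8 genes were positive in both. Without KO22 replicate 1, *Hk1* fell in KO22 (log2 fold change -0.30, adjusted p = 0.0112), as it did without WT replicate 1 (-0.32, adjusted p = 0.00672). For KO26 the median difference was 0.85 in batch 1 and 0.95 in batch 2, and all 10 genes were positive in each batch. The 7 calls of KO22 were made in all 14 alternative fits. The number called in KO26 was less firm, from 1 without WT replicate 3 or without KO26 replicate 2 to 10 without KO22 replicate 1, while the log2 fold changes of all 10 genes stayed positive in all 18 alternatives, at 0.21 or more. In the batch term of the same fit, *Aldoa* (-0.54, adjusted p = 0.0280) and *Eno1* (-0.57, adjusted p = 0.0158) were lower in batch 2 than in batch 1, as were 4.31% of all genes.

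The test that compares the lines with each other rather than with WT separated 4 of the 10 genes. *Hk1* (log2 fold change of KO22 against KO26 -0.97 ± 0.21, adjusted p = 0.00496), *Pfkl* (-0.63 ± 0.20, adjusted p = 0.0346) and *Aldoa* (-0.47 ± 0.16, adjusted p = 0.0454) were lower in KO22, and *Pkm* was higher (0.45 ± 0.15, adjusted p = 0.0381). These counts of 3 lower and 1 higher stand beside 18.1% of all genes lower and 16.3% higher. Relative to the median of the genes on the same chromosome, a value without a test, all 4 differences were smaller, at -0.43 for *Hk1*, -0.08 for *Pfkl*, -0.12 for *Aldoa* and 0.11 for *Pkm*. For *Slc2a1*, *Hk2*, *Pfkp*, *Pgk1*, *Eno1* and *Ldha* no difference between the lines was detected. Of the 4 differences, that in *Hk1* passed the test in 14 of 15 alternative fits, *Pfkl* in 8, *Aldoa* in 6 and *Pkm* in 6. Without KO22 replicate 1 the number lower in KO22 was 5, and without KO26 replicate 2 it was 0.

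*Hk1* and *Pfkl* both lie on chromosome 10, where the median log2 fold change of KO22 against WT over 968 tested genes was -0.54. The median was -0.45 on chromosome 6, which holds *Hk2*, and -0.32 on chromosome 7, which holds *Aldoa* and *Ldha*. It was between 0.02 and 0.27 on the chromosomes of the other 5 genes. Relative to the median of its own chromosome, each of the 10 genes was positive in KO22, from 0.42 for *Hk1* and 0.47 for *Aldoa* to 1.26 for *Hk2* and 1.30 for *Ldha*, as values without a test. In KO26 the medians of these chromosomes lay between -0.13 and 0.16. The part of these chromosome medians in the values was not tested. Ribosomal RNA took 16.7% to 22.6% of the counts in WT, 12.6% to 16.1% in KO22 and 13.9% to 19.4% in KO26, and without *mt-Rnr1*, *mt-Rnr2* and *Rn18s-rs5* the counts of calls in KO22 and KO26 were again 7 and 5. Of 5 measured endothelial markers, 2 fell and 1 rose in KO22. Their summed level, 153 to 237 CPM in WT, 3.96 to 5.30 CPM in KO22 and 56.6 to 74.2 CPM in KO26, was nearly all that of the receptor gene *Kdr* (234 of 237 CPM in WT replicate 1), named after its values were seen (-6.22, adjusted p = 8.68e-06 in KO22), while *Plvap* rose (1.82, adjusted p = 0.0192). Their part in the glycolytic values was not tested.

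The ratio of counts of related genes within a library does not depend on the scaling between libraries. The log2 ratio of *Hk2* to *Hk1* was 0.06, -0.32, -0.41 and -0.27 in WT and 1.13, 0.59 and 0.50 in KO22, and that of *Pfkp* to *Pfkl* was 0.27, 0.50, 0.76 and 0.53 in WT and 1.03, 1.26 and 1.21 in KO22. The ratio of *Ldha* to *Ldhb*, the subunit that favours the use of lactate, was 3.25, 2.67, 2.61 and 2.32 in WT and 3.50, 3.66 and 3.79 in KO22. Every KO22 library was above every WT library in all 3 ratios, with mean differences of 0.98, 0.65 and 0.94. The exact permutation p (two-sided) was 0.0571 for each, the smallest that 4 against 3 libraries allow, and 0.114 after adjustment over 6 tests. This test had no batch term. The genes of each pair lie on different chromosomes. In KO22 against WT the chromosome median was -0.45 for *Hk2* and -0.54 for *Hk1*, and 0.02 for *Pfkp* and -0.54 for *Pfkl*. It was -0.32 for *Ldha* and -0.45 for *Ldhb*. The part of these medians in the ratios was not tested. The KO26 libraries were at 0.59 and -0.18 for *Hk2* to *Hk1*, at 0.07 and 0.92 for *Pfkp* to *Pfkl*, and at 3.58 and 2.82 for *Ldha* to *Ldhb*. Within their own batch, both KO26 libraries were above every WT library for *Hk2* to *Hk1* and for *Ldha* to *Ldhb*, and 1 of the 2 was for *Pfkp* to *Pfkl*, as values without a test.

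The genes most like *Pkm*, which had the largest change in KO22, were sought among 9464 genes with a mean of at least 10 CPM, by the root mean square distance between log2 profiles over the 9 mRPE libraries, each centred on its WT mean. The 5 nearest were *Eif4ebp1* (distance 0.148), *Eno1* (0.148), *Apmap* (0.165), *Yars1* (0.167) and *Carhsp1* (0.170). Of the 10 genes described here, *Slc2a1* (0.215), *Ldha* (0.220) and *Pgk1* (0.228) had fewer than 20 genes nearer to *Pkm*, whereas *Hk1* was at 0.918 with 5044 nearer. This likeness is a description over the same libraries that gave the fold changes.

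Other carriers and enzymes of glycolysis rose and fell. Of the 24 of 29 listed genes that were measured, 6 rose and 4 fell in KO22 (median log2 fold change 0.07), beside 26.9% of all genes higher and 26.1% lower, and 3 rose and 0 fell in KO26 (median 0.38, against 0.03 over all genes), where 0 were lower also at an unadjusted p under 0.05 and under DESeq2. *Gapdh*, the glyceraldehyde-phosphate dehydrogenase often used as a reference gene, rose in KO22 (0.62, adjusted p = 0.00337) and in KO26 (1.22, adjusted p = 0.00491). *Tpi1*, the triose isomerase, also rose in both lines (0.51, adjusted p = 0.00983, and 0.96, adjusted p = 0.0117). *Pgam1*, the phosphoglycerate mutase, rose in KO26 (0.80, adjusted p = 0.0171) and was at 0.08 in KO22 (adjusted p = 0.605), and the lines differed (-0.71, adjusted p = 0.00432). *Gpi1*, the glucose-phosphate isomerase, was at 0.08 in KO22 (adjusted p = 0.709) and at 0.57 in KO26 (adjusted p = 0.197). *Pfkm*, the muscle-type phosphofructokinase subunit, rose in KO22 (0.53, adjusted p = 0.00367). The high-affinity glucose carrier gene *Slc2a3* (-0.39, adjusted p = 0.415, and 1.08, adjusted p = 0.260) and *Ldhb* (0.06, adjusted p = 0.845, and 0.43, adjusted p = 0.407) had no call in either line.

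Within the same list, further genes moved both ways in KO22. *Pfkfb4*, one of the bifunctional enzymes that set the level of an activator of phosphofructokinase, rose (1.60, adjusted p = 0.000154), while *Pfkfb2*, another of them, fell (-2.09, adjusted p = 6.69e-06). *Pfkfb3*, of the same family and named after its values were seen, also rose (1.16, adjusted p = 0.0109). It was at 216, 87.2 and 73.0 CPM in KO22 against 39.4 to 58.4 CPM in WT. *Eno2*, the neuronal enolase, fell (-1.39, adjusted p = 2.26e-05), and so did *Bpgm*, the bisphosphoglycerate mutase (-1.09, adjusted p = 0.00934). None of *Pfkfb4*, *Pfkfb2*, *Eno2* and *Bpgm* was called in KO26, with log2 fold changes of 0.08, -0.34, -0.19 and 0.44, and each differed between the lines.

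The lactate exporter set the lines apart. *Slc16a3*, which encodes MCT4, the lactate exporter of glycolytic cells, was at 2.62, 5.42, 4.03 and 5.17 CPM in WT, at 66.8, 43.9 and 54.3 CPM in KO22, and at 1.72 and 4.16 CPM in KO26. It rose in KO22 (log2 fold change 3.71 ± 0.26, adjusted p = 4.99e-06), it was not called in KO26 (-0.56, adjusted p = 0.446), and the lines differed (4.32, adjusted p = 3.63e-05). *Slc16a1*, which encodes the lactate carrier MCT1, was at 38.4, 22.4, 19.9 and 18.6 CPM in WT, at 72.0, 64.4 and 64.1 CPM in KO22, and at 57.1 and 34.2 CPM in KO26. It rose in KO22 (1.43, adjusted p = 6.16e-05) and did not pass the test in KO26 (0.73, adjusted p = 0.0542). *Pdk4* (-3.03, adjusted p = 2.68e-06) and *Pdk2* (-2.87, adjusted p = 1.23e-05), kinases that hold back pyruvate dehydrogenase, fell in KO22, as did the opposing phosphatase *Pdp1* (-1.36, adjusted p = 5.45e-05). Of the same families, the kinase *Pdk3* (0.66, adjusted p = 0.000532) and the phosphatase *Pdp2* (0.78, adjusted p = 0.0179) rose in KO22. The kinase *Pdk1* had no call there (0.42, adjusted p = 0.214). *Pdk1*, *Pdk3* and *Pdp2* were named after their values were seen. In the list of lactate and pyruvate genes, 8 of 16 measured rose and 5 fell in KO22, and 1 rose and 0 fell in KO26, where 2 were lower at an unadjusted p under 0.05 and 1 under DESeq2.

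In KO22 the counts of the neighbouring pathways stand beside the same 26.9% of all genes higher and 26.1% lower. Of the 16 genes of the tricarboxylic acid cycle, 10 rose and 1 fell (median 0.61), with *Sdhb*, a subunit of succinate dehydrogenase, at 1.40 (adjusted p = 0.00170). In KO26, 0 of the 16 were called by edgeR or by DESeq2 and 3 were higher at an unadjusted p under 0.05, at a median of 0.31. Of 7 pentose phosphate genes, 4 rose and 1 fell in KO22, with the transketolase gene *Tkt* at 1.64 (adjusted p = 6.69e-06) and *Pgd*, the phosphogluconate dehydrogenase, at 1.27 (adjusted p = 9.49e-06). *Tkt* rose in KO26 as well (0.70, adjusted p = 0.0330). Of 12 measured genes of glycogen and gluconeogenesis, 4 rose and 3 fell in KO22, which is near those shares, and 1 rose in KO26. *Gbe1*, the glycogen branching enzyme (2.32, adjusted p = 0.00234), and *Pygl*, the liver glycogen phosphorylase (3.19, adjusted p = 0.00742), rose in KO22, and *Pcx*, the pyruvate carboxylase, fell (-0.91, adjusted p = 0.00229).

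**Figure D3:**
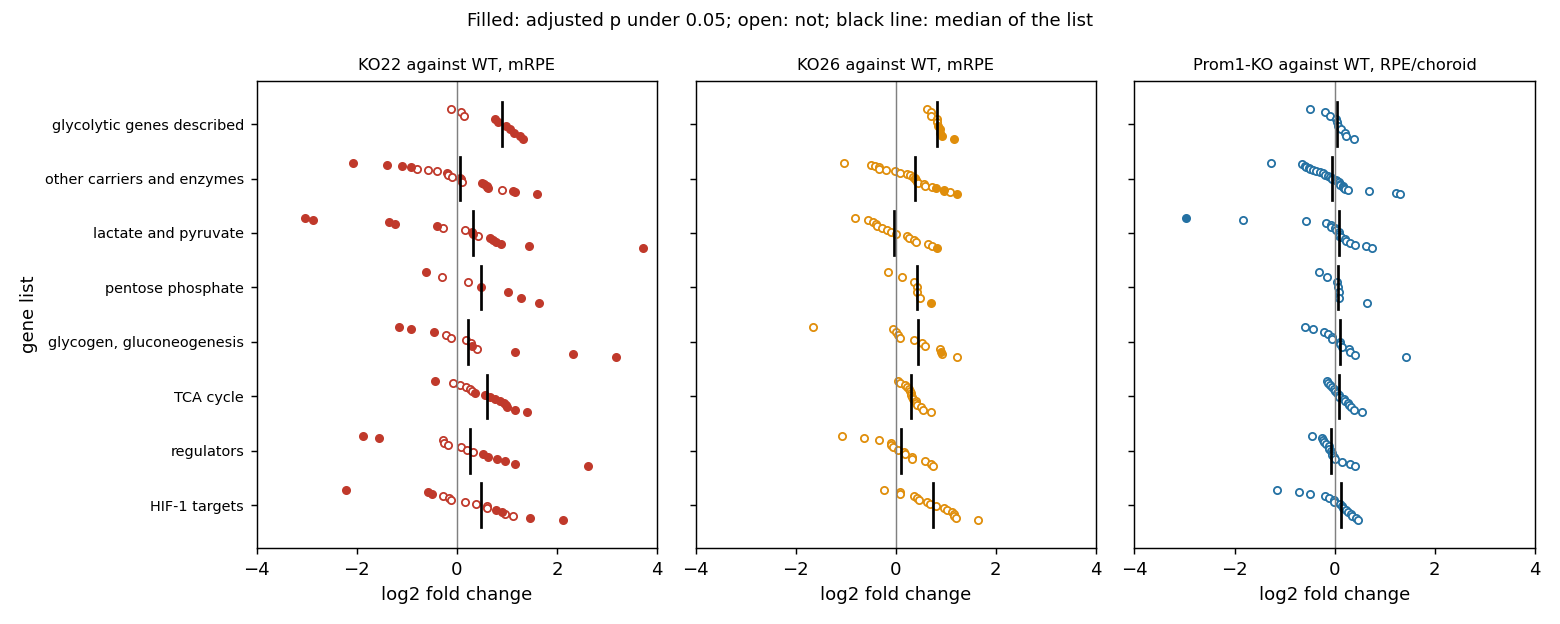
Log2 fold change (horizontal axes) of every measured gene of 8 lists (rows) in KO22, in KO26 and in RPE/choroid labelled Prom1_KO, each against WT, with genes past an adjusted p under 0.05 filled and the median of each list as a black line. The 10 glycolytic genes have the highest median of the 8 lists in both mRPE panels, 0.90 in KO22 and 0.83 in KO26, and a median of 0.05 in RPE/choroid.

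Among the regulators, *Hif1a*, the oxygen-regulated subunit of HIF-1, was at 212, 214, 193 and 174 CPM in WT, at 386, 257 and 247 CPM in KO22, and at 140 and 184 CPM in KO26. It rose in KO22 (0.52, adjusted p = 0.00836) and was not called in KO26 (-0.33, adjusted p = 0.384). *Myc* was at 61.4, 66.2, 62.9 and 73.1 CPM in WT, at 120, 149 and 168 CPM in KO22, and at 75.5 and 66.7 CPM in KO26, and rose in KO22 (1.15, adjusted p = 3.15e-05) without a call in KO26 (0.16, adjusted p = 0.603). *Txnip* (-1.57, adjusted p = 9.53e-05) and *Arrdc4* (-1.87, adjusted p = 4.70e-05), arrestins that limit glucose uptake, fell in KO22. *Ppargc1a* rose in KO22 (2.62, adjusted p = 0.00602) at low levels, 2.33, 2.60 and 2.095 CPM against 0 to 0.785 CPM in WT. *Epas1*, which encodes HIF-2α, rose in KO22 (0.80, adjusted p = 0.00576) and had a negative value without a call in KO26 (-1.08, adjusted p = 0.0836). In all, 6 of 14 measured regulators rose and 2 fell in KO22. In KO26, 0 were called by edgeR, 3 were higher and 1 lower at an unadjusted p under 0.05, and DESeq2 called 1 higher and 1 lower.

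HIF-1 targets outside glycolysis varied between libraries of the same line. Their summed level was 1457 to 1882 CPM in WT, 5816, 1757 and 1548 CPM in KO22, and 2061 and 3506 CPM in KO26. The batch 1 library of KO22 thus stood apart from the other KO22 libraries, and both KO26 libraries were above WT. *Ero1a*, an oxidase of the endoplasmic reticulum, was at 2393, 399 and 333 CPM in KO22 and at 182 and 717 CPM in KO26, against 112 to 179 CPM in WT. *Vegfa*, the angiogenic growth factor, was at 575, 129 and 137 CPM in KO22 and at 55.9 and 110 CPM in KO26, against 62.9 to 107 CPM in WT. Of the 16 genes, 4 rose in KO22: *Ero1a* (2.12, adjusted p = 0.00798), *Vegfa* (1.45, adjusted p = 0.0165), *Higd1a* and *Fam162a*. The 3 that fell were *Adm* (-2.22, adjusted p = 0.000226), *Kdm3a* and *Mxi1*. In KO26, 15 of the 16 had a positive log2 fold change, 0 were called by edgeR, 8 were higher at an unadjusted p under 0.05, and DESeq2 called 2. *Higd1a*, *Fam162a*, *Kdm3a* and *Mxi1* were named after their values were seen. The part of what set these libraries apart in the glycolytic values was not tested.

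**Figure D4:**
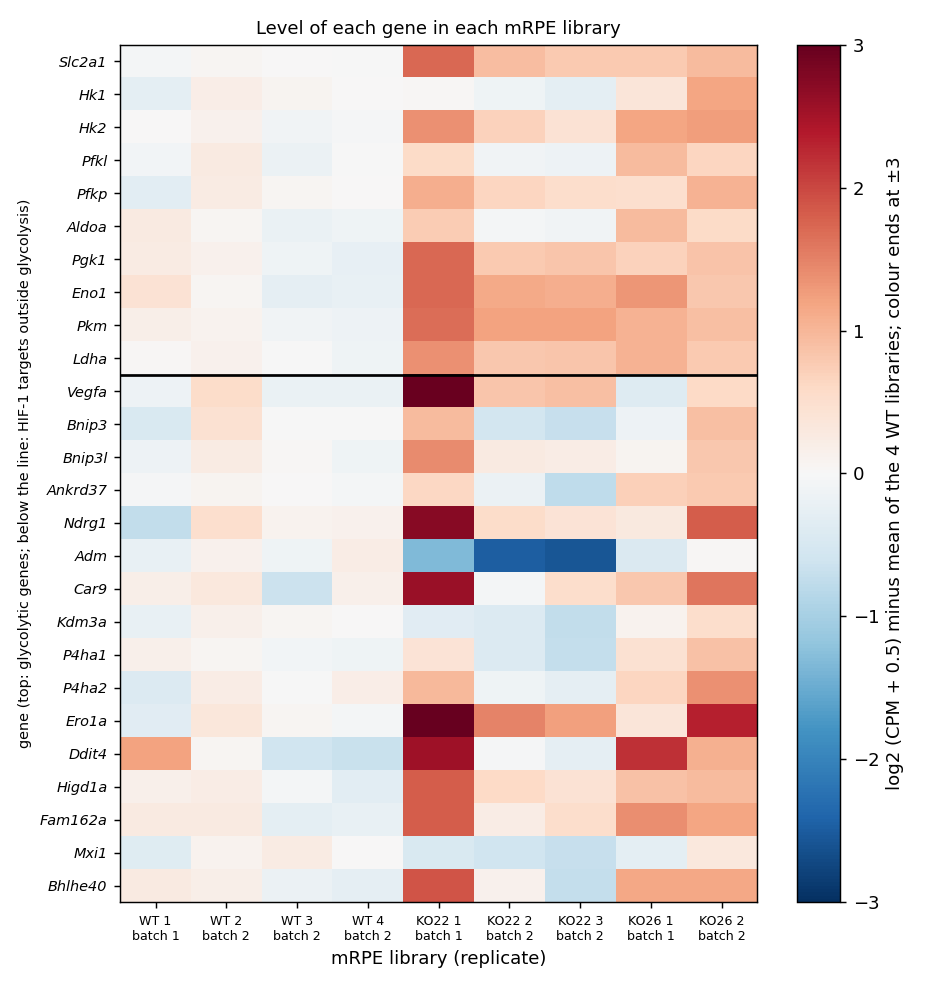
Level of the 10 glycolytic genes (above the line) and of 16 HIF-1 targets outside glycolysis (below) in each mRPE library, as log2 of CPM plus 0.5 minus the mean of the 4 WT libraries, in colour from blue (lower) to red (higher). *Pkm*, *Eno1* and *Ldha* are red in all 5 KO libraries, whereas *Vegfa* and *Ero1a* are darkest in the batch 1 library of KO22.

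In RPE/choroid none of the 10 genes differed between the libraries labelled Prom1_KO and WT (edgeR, 0 higher and 0 lower, none under an unadjusted p of 0.05, and 0 under DESeq2). Their log2 fold changes ran from -0.50 for *Pfkl* to 0.39 for *Ldha*, with a median of 0.05 against 0.01 over all genes, and adjusted p of 0.667 or more. The comparison called few genes at all, 0% of 24926 higher and 0.193% lower. At an unadjusted p under 0.05, 993 of all genes were higher, and DESeq2 called 145 higher. In counts simulated from these libraries, 18 of 100 genes changed by a log2 fold change of 1 and 99 of 100 changed by 3 were recovered, so changes of the size seen in mRPE would mostly have been missed. In whole tissue, fewer cells of a type and less RNA per cell cannot be told apart.

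The tissue order of levels differed from that in culture. Per kilobase, *Aldoa* (58.8 ± 7.48 CPM per kilobase, SD, n = 3) and *Ldha* (49.0 ± 11.2) were highest in WT and overlapped, and *Slc2a1* came next at 23.5 ± 11.8, overlapping with *Pkm* (17.0 ± 2.67), which overlapped with *Eno1* (14.3 ± 3.28). *Pfkp* (7.51 ± 2.12) overlapped with *Pgk1* (6.45 ± 1.63), *Pfkl* (3.27 ± 0.408) with *Hk1* (3.26 ± 0.540), and *Hk2* was lowest at 1.19 ± 0.427. The tables were scaled separately, so levels were not tested between tissue and culture. *Pgk1* was at place 3 in WT mRPE and at place 7 in WT tissue. Its place and that of *Eno1* depend on how shared reads were counted, which may differ between mRPE and tissue.

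*Slc2a1* was at 164, 65.8 and 83.4 CPM in WT and at 141, 134 and 48.1 CPM in the libraries labelled Prom1_KO, a spread within each group of more than the difference between their means (log2 fold change 0.05 ± 0.47). *Ldha* was at 66.2, 69.2 and 98.3 CPM and at 88.2, 91.7 and 126 CPM, with overlapping groups (0.39 ± 0.21, adjusted p = 0.706). *Pfkl* was at 15.3, 12.5 and 12.4 CPM in WT and at 11.3, 10.9 and 6.14 CPM in the labelled knockout, the one gene of the 10 without overlap, as were 7.89% of all genes in this direction (-0.50 ± 0.24, adjusted p = 0.667).

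The remaining genes overlapped between the tissue groups. *Aldoa* was at 71.9 to 103 CPM, *Pkm* at 33.9 to 51.5, *Eno1* at 18.9 to 48.4, *Pfkp* at 22.3 to 50.0, *Hk1* at 8.59 to 16.6, *Pgk1* at 8.52 to 15.2 and *Hk2* at 6.61 to 13.04 CPM over the 6 libraries. The *Pfkp* to *Pfkl* log2 ratio was 1.18, 0.84 and 1.69 in WT and 2.14, 1.82 and 1.99 in the labelled knockout, without overlap (difference 0.75, exact permutation p = 0.10, the smallest that 3 against 3 allow, adjusted p = 0.150). The *Hk2* to *Hk1* and *Ldha* to *Ldhb* ratios differed by 0.30 and 0.21 (exact permutation p = 0.60 and 0.70).

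**Figure D5:**
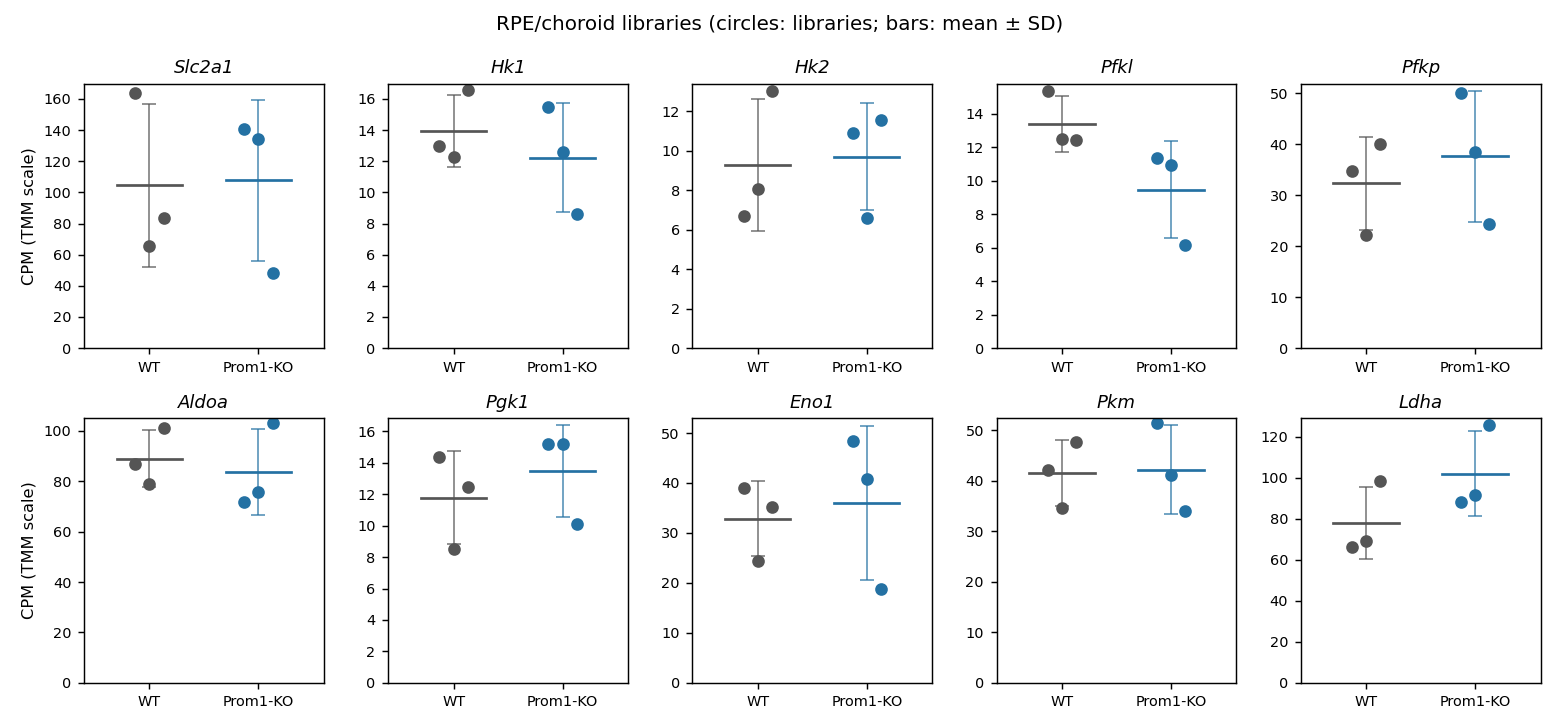
Level of each glycolytic gene in CPM (vertical axes, each from 0) in the 3 WT and 3 labelled Prom1_KO libraries of RPE/choroid, with the mean ± SD as bars. The groups overlap in 9 of the 10 panels, and *Pfkl* is the exception.

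The libraries of RPE/choroid differed in their mixture of tissues. The summed level of 12 striated muscle markers was 1125, 2801 and 3808 CPM in WT and 296, 980 and 4832 CPM in the labelled knockout, and that of 12 photoreceptor markers was 96.1, 44.9 and 1203 CPM and 580, 152 and 22.0 CPM. None of either list was at 0 in any library. Of 8 endothelial markers, whose summed level was 73.9 to 150 CPM in WT and 43.1 to 68.5 CPM in the labelled knockout, edgeR called 0, 6 were lower at an unadjusted p under 0.05 and DESeq2 called 2 lower. Ribosomal RNA took 56.8% to 62.7% of the counts in WT and 65.2%, 64.7% and 82.2% in the labelled knockout, whose replicate 3, the highest, had the lowest *Slc2a1*, *Eno1*, *Hk1*, *Pfkl* and *Pkm* and the highest *Ldha* and *Aldoa* of the 6 libraries. With WT replicate 3 and labelled knockout replicate 3 left out together, a choice made after seeing the data, 0 of the 10 genes were called. The part of muscle, photoreceptor, endothelial and ribosomal RNA in these values was not tested.

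Of the other genes of the pathway, the lactate carrier of the RPE was the one that edgeR called in tissue, while DESeq2 called 1 more. *Slc16a8*, which encodes MCT3 of the basal RPE membrane, was at 27.5, 20.0 and 24.4 CPM in WT and at 2.58, 4.06 and 2.42 CPM in the labelled knockout, and fell (log2 fold change -2.98 ± 0.24, adjusted p = 0.00692). *Slc16a1* was at 24.0, 13.2 and 24.4 CPM in WT and at 6.64, 7.22 and 3.28 CPM in the labelled knockout, without overlap. By edgeR it had no call (-1.84, adjusted p = 0.149), and DESeq2 called 2 genes of the lactate and pyruvate list lower. Part of the RPE marker list was lower as well. Of 12 RPE markers, 4 fell, *Rpe65* (-6.06, adjusted p = 0.0191), *Rgr* (-5.23, adjusted p = 0.0242), *Lrat* (-3.43, adjusted p = 0.00445) and *Rdh5* (-2.10, adjusted p = 0.0242), and 0 rose, with summed levels of 2280 to 3236 CPM in WT and 1013 to 1124 CPM in the labelled knockout. DESeq2 called 7 of the 12 lower, and 2 had a positive log2 fold change. *Dct* was at 545, 517 and 315 CPM in WT and at 591, 570 and 619 CPM in the labelled knockout. *Tyr* was at 95.8, 71.5 and 65.3 CPM in WT and at 115, 91.9 and 81.5 CPM in the labelled knockout, with overlapping groups. The 4 markers called by edgeR, *Dct* and *Tyr* were named after their values were seen. The part of RPE content in the fall of *Slc16a8* was not tested. In the list of other carriers and enzymes, in the pentose phosphate, glycogen and tricarboxylic acid cycle lists and among the regulators, 0 genes were called in tissue by edgeR or DESeq2, and 0 to 1 per list and direction passed an unadjusted p under 0.05. Of the HIF-1 targets, edgeR called 0 and DESeq2 1.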

How the data were processed

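Raw counts per gene, as deposited, were used for 9 mRPE and 6 RPE/choroid libraries. Per the labels and the study's methods, the authors trimmed reads with Trim Galore (v0.6.7), aligned them to mm39 with STAR and, for mRPE, took STAR gene counts; the strand setting and annotation release, and how tissue genes were counted, are not given in the sources used here. The authors' normalized counts were not used. Reads shared between near-identical genes may have been handled in different ways in mRPE and in tissue, and the counts of such genes depend on that handling.

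The count filter asked for 5 or more counts in 3 or more libraries, and the genes that passed were analysed with the edgeR (v4.0.16) quasi-likelihood test in R (v4.3.3) after trimmed mean of M values (TMM) scaling, with Benjamini-Hochberg adjustment over all genes tested. WT and KO22 were fitted over 7 libraries, KO26 and the difference between lines over all 9, each with batch as a term, and tissue over 6 libraries. The limit was an adjusted p under 0.05. DESeq2 (v1.42.0) was an alternative. Ratios were tested by exact two-sided permutation (scipy v1.17.1). In simulated counts with genes changed by a log2 fold change of 1, the KO22 fit recovered 87 of 100 and the KO26 fit 61 of 100. Positions are those of GENCODE on GRCm39.

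The 10 genes, the lists and the tests were chosen with earlier results of these data known. All 10 genes are named, and other pathway genes were named when they passed the adjusted p and an absolute log2 fold change over 1.2 in any mRPE comparison, or the adjusted p in tissue, up to 5 a list, beside a fixed set of core enzymes, carriers and regulators. Libraries of 1 group differed by more than sampling noise (chi-square per degree of freedom of 4.80 or more), so none was merged.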

Additional observations from a re-analysis of the deposited data

Results flagged for a closer look

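KO22 and KO26 differed in 4 of the 10 glycolytic genes by the edgeR test between the lines, which called 18.1% of all genes lower in KO22 and 16.3% higher. *Hk1*, the hexokinase of most tissues, was lower in KO22 by a log2 fold change of -0.97, with 37.3 to 46.6 CPM in KO22 and 59.3 and 105 CPM in KO26. *Pfkl* was lower by -0.63 and *Aldoa* by -0.47, while *Pkm* was higher in KO22 by 0.45. The median log2 fold change of KO22 against KO26 was -0.54 over chromosome 10, which holds *Hk1* and *Pfkl*, -0.35 over chromosome 7, which holds *Aldoa*, and 0.33 over chromosome 9, which holds *Pkm*. Relative to these medians the differences were -0.43 for *Hk1*, -0.08 for *Pfkl*, -0.12 for *Aldoa* and 0.11 for *Pkm*, as values without a test. The part of the chromosome medians in these differences was not tested.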

How the results depend on the processing

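The count of 7 genes higher in KO22 was the same in every fit tried, and 2 also passed the log2 limit of 1.2. The count lower in KO22, 0, became 1 (*Hk1*) in batch 2 alone and ranged from 0 to 1 when each library was left out, at 1 without WT replicate 1 or KO22 replicate 1. The count higher in KO26, 5, was 0 with the log2 limit, 9 with DESeq2, 2 with no batch term, 10 in batch 2 alone and 10 with WT and KO26 libraries alone. It ranged from 1 to 10 when each library was left out, at 3 without WT replicate 1, 2 without WT replicate 2 or 4, 1 without WT replicate 3 or KO26 replicate 2, and 10 without KO22 replicate 1. Between the lines, the count higher in KO22, 1, was 0 with the log2 limit, with no batch term and in batch 2 alone, 2 with DESeq2, and 0 to 1 with each library left out. The count lower, 3, was 0 with the log2 limit, 1 with no batch term, 5 in batch 2 alone, and 0 to 5 with each library left out, at 0 without KO26 replicate 2 and 5 without KO22 replicate 1. The cause was not tested. In RPE/choroid 0 genes were called in every fit. No value that passed the test in the main fit changed sign. Among values without a call in the main fit some did, such as *Hk1* in KO22 against WT, which ran from -0.32 to 0.42 over the alternatives. DESeq2 size factors shifted the median of all genes by at most 0.02. Leaving out ribosomal RNA genes, or WT replicate 3 with labelled knockout replicate 3, were alternatives chosen after seeing the data, and neither changed these counts. No paired analysis was possible because the labels give no replicate numbers. The numbers used here follow accession order, and the batch that replicate 1 of the mRPE groups shares was a term of the fit.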
